A study of Saccharomyces cerevisiae with 60 samples.

Results

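The genes described here are those of the proteasome of budding yeast, together with RPN4, which encodes the transcription factor that drives them. They were taken by name: every gene of the array whose symbol was PRE, PUP, RPN or RPT followed only by digits, plus SCL1. This gave 32 of 5524 genes, each measured by 1 spot. They comprised 13 genes of the core particle, 17 genes of the regulatory particle, RPN4 and RPN14. PRE2 of the core and RPN7 of the regulatory particle were not analysed here.

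The proteasome degrades proteins that carry a ubiquitin chain. Its core particle is a barrel of stacked rings, with alpha subunits at both ends forming the gate and beta subunits between them holding the proteolytic sites. The regulatory particle caps the barrel: its base contains a ring of ATPases, the RPT proteins, that unfold substrates, and its lid contains the deubiquitinase RPN11. Rpn4 protein is itself a very short-lived substrate of the proteasome, so that it accumulates when degradation is slow and then activates transcription of nearly all subunit genes through a shared promoter element. Copper is a redox-active metal that can oxidize proteins.

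Total RNA of 9 strains of Saccharomyces cerevisiae was measured on 60 arrays of 2 colours. The strains were S288C, the common laboratory strain, YPS163, M5, M8, M13, M14, M22, M32 and M34, each grown exponentially in copper sulfate medium and in rich medium, with 3 arrays for each strain and medium. On these 54 arrays a strain was hybridized against a pool of RNA from all 9 strains in the same medium. On the other 6 arrays the copper pool was hybridized against the rich medium pool. The labels give no copper dose, time of exposure, mating type or ploidy. Nothing in them tells whether replicates came from separate cultures. The p-values therefore cover the spread among arrays alone, which could be technical, and the number of arrays limits the precision. In RNA from whole cultures, fewer cells that express a gene and less RNA per cell cannot be told apart.

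The deposited values were log2 ratios without centring, and each array was centred here on its median. The direction of the ratios was inferred and is not given in the labels. Strain arrays were read as channel 1 over channel 2, since a pool is the average of its members, and the strains' unlogged ratios then averaged closest to 1. Pool arrays were read the opposite way, since CUP1-1, the metallothionein gene that copper induces, is then higher in copper on every pool array (3.45 to 8.92 on the log2 scale). The direction of the strain arrays rests on that average alone and was not tested otherwise. The strain arrays of the same channel order, medium and different strains correlated below -0.3 in 49 of 352 pairs, with a lowest r of -0.60. These correlations stay the same when all strain arrays are turned, so they cannot show the common direction. If the inferred direction of the strain arrays were wrong, each higher value of a strain below would be a lower one. Each order of strains would then run backwards, while the pool values and the correlations would not change. After a running median over spot position was subtracted, 0 of these 352 pairs lay below -0.3. Neighbouring spots shared part of their value: the running median removed 7.57% to 73.3% of the variance of an array. The main calls and summaries are therefore given with the arrays as centred and with spot position subtracted. Values of single arrays are those as centred unless stated. The strain was in channel 2 in the first replicate and in channel 1 in the other 2, in all strains and both media except the third rich medium replicate of M5, where it was in channel 2.

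The pool arrays ask which transcripts copper changed over the 9 strains together. Core particle genes lay above 0 as a group: 12 of 13 had a fitted log2 value, copper over rich medium, above 0, with a median of 0.54. Regulatory particle genes lay closer to 0, with 14 of 17 above 0 and a median of 0.16, against a median of -0.04 and 44.1% above 0 over all 5524 genes. Within the regulatory particle the 7 lid genes had a median of 0.40 and the 10 base genes 0.11. The lid mean was 0.48, 0.04, 0.59, -0.13, 0.34 and 0.22 on pool arrays 1 to 6. The base mean was 0.0052, 0.28, -0.29, -0.24, 0.55 and 0.55. Base was thus above lid on arrays 2, 5 and 6, and lid above base on arrays 1, 3 and 4. Copper was in channel 1 on arrays 1 and 3 and in channel 2 on the others. The 6 RPT genes, which encode the ATPase ring, had a median of 0.07. With spot position subtracted the medians were 0.46 for the core and 0.26 for the regulatory particle, against -0.03 over all genes. Lid, base and RPT genes then had medians of 0.34, 0.20 and 0.18. With arrays scaled to equal median absolute deviation the core had 0.41 and the regulatory particle 0.21. In the test across all genes (limma with a channel effect for each gene, Benjamini-Hochberg adjustment), 3 of the 32 genes passed an adjusted p of 0.05, all 3 higher in copper and all 3 of the alpha ring. Over all genes 1.41% passed, 1.18% higher and 0.235% lower.

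PRE10, an alpha subunit of the core, had log2 ratios of 1.83, -0.31, 1.34, 0.17, 0.69 and 0.31 on pool arrays 1 to 6. Arrays 1 and 3, the 2 arrays with copper in channel 1, were the highest, and array 2 lay below 0. Its fitted value was 0.90 ± 0.18 (SE, n = 6 arrays, limma adjusted p = 0.0251).

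PUP2, also of the alpha ring, had 1.91, -0.56, 1.49, -0.07, 0.78 and 0.15 on the same arrays, a fitted value of 0.89 ± 0.19 (limma adjusted p = 0.0406). PRE8, a further alpha subunit, had 1.75, -0.35, 1.45, -0.14, 0.93 and 0.11, a fitted value of 0.87 ± 0.19 (limma adjusted p = 0.0428). All 3 genes thus showed one profile over the arrays, with arrays 1 and 3 at the top and array 2 at the bottom. On the 2 arrays with copper in channel 1 PRE10, PUP2 and PRE8 averaged 1.58, 1.70 and 1.60. On the 4 arrays with copper in channel 2 they averaged 0.21, 0.07 and 0.14. The fitted value weights both channel orders equally, and the calls depend on that: with no channel effect in the fit the values were 0.67, 0.62 and 0.62 and 0 of the 32 genes passed. Over all genes 0.380% passed in that fit.

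The spots around these 3 genes moved with them. PUP2 and PRE8 had their spots in the same block, number 5 of the 16 inferred, and PRE10 in block 9. The running median over neighbouring spots, fitted in the same way, was 0.35 at PRE10, 0.34 at PUP2 and 0.31 at PRE8. With it subtracted, PRE10 had 0.55 (limma adjusted p = 0.136), PUP2 0.54 (0.121) and PRE8 0.55 (0.142). Then 0 of the 32 genes passed, against 1.57% of all genes. The part of spot position in the calls was not tested further. Leaving out pool array 1, 3 or 5 also left 0 calls among the 32, and leaving out array 6 left only PRE10. Over all genes 0.561%, 0.272%, 0.742% and 1.27% passed without arrays 1, 3, 5 and 6. With arrays centred within spot blocks PRE10 passed (0.67, limma adjusted p = 0.0416), PUP2 and PRE8 did not, and RPN12 of the lid did (0.59, 0.0491). There 1.74% of all genes passed.

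The remaining alpha genes were lower or near 0. PRE6 had a fitted value of 0.54 (limma adjusted p = 0.242) and SCL1 0.48 (0.210). SCL1 ran from -0.15 to 0.75 and was above 0 on 5 of 6 arrays. PRE5 had 0.10 and PRE9 0.01. PRE9 encodes the 1 alpha subunit that yeast can live without.

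Of the beta ring, PRE1 had 0.66 (limma adjusted p = 0.0737), PUP3 0.64, PRE4 0.62, PRE3 0.44 and PRE7 0.35. PRE3 encodes the caspase-like active subunit. PUP1, the trypsin-like active subunit, stood apart from the rest of its ring. Its log2 ratios were -1.32, 2.25, -2.0, 0.13, 0.75 and 2.73, with an SD of 1.88 and a fitted value of -0.10 ± 0.30 (limma adjusted p = 0.896). It was below 0 on both arrays with copper in channel 1 and above 0 on all 4 with copper in channel 2, with means of -1.66 and 1.46. Fitted on those 4 arrays alone, PUP1 was the 1 of 32 genes that passed (1.46, limma adjusted p = 0.0473), where 2.73% of all genes passed.

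Base genes spanned nearly the whole range of the regulatory particle. RPN2, a large scaffold subunit, had the highest fitted value, 0.47 (limma adjusted p = 0.342). RPT1, an ATPase, had the lowest of all 32 genes. Its log2 ratios were -1.86, 1.61, -1.93, -0.19, 0.41 and 2.36 (SD 1.76), and its fitted value was -0.42 ± 0.28 (limma adjusted p = 0.497). RPN13, a ubiquitin receptor, was second lowest, with -0.71, -0.17, -1.16, 0.47, 0.70 and 0.67 and a fitted value of -0.26 ± 0.17 (limma adjusted p = 0.504). For both genes the 2 arrays with copper in channel 1 lay below all 4 with copper in channel 2. The other 7 base genes lay between -0.08 (RPT4) and 0.30 (RPN1).

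All 7 lid genes had fitted values above 0. RPN6, which clamps lid, base and core together, had 0.53 (limma adjusted p = 0.143). RPN11, the deubiquitinase, had 0.50, RPN9 0.46 and RPN12 0.40. RPN8, the partner of RPN11, had 0.16, RPN3 0.15 and RPN5 0.08. With spot position subtracted, RPN12 had the lowest adjusted p of the 32 genes (0.55, limma adjusted p = 0.0540), followed by RPN11 (0.55, 0.0673).

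**Figure D1:**
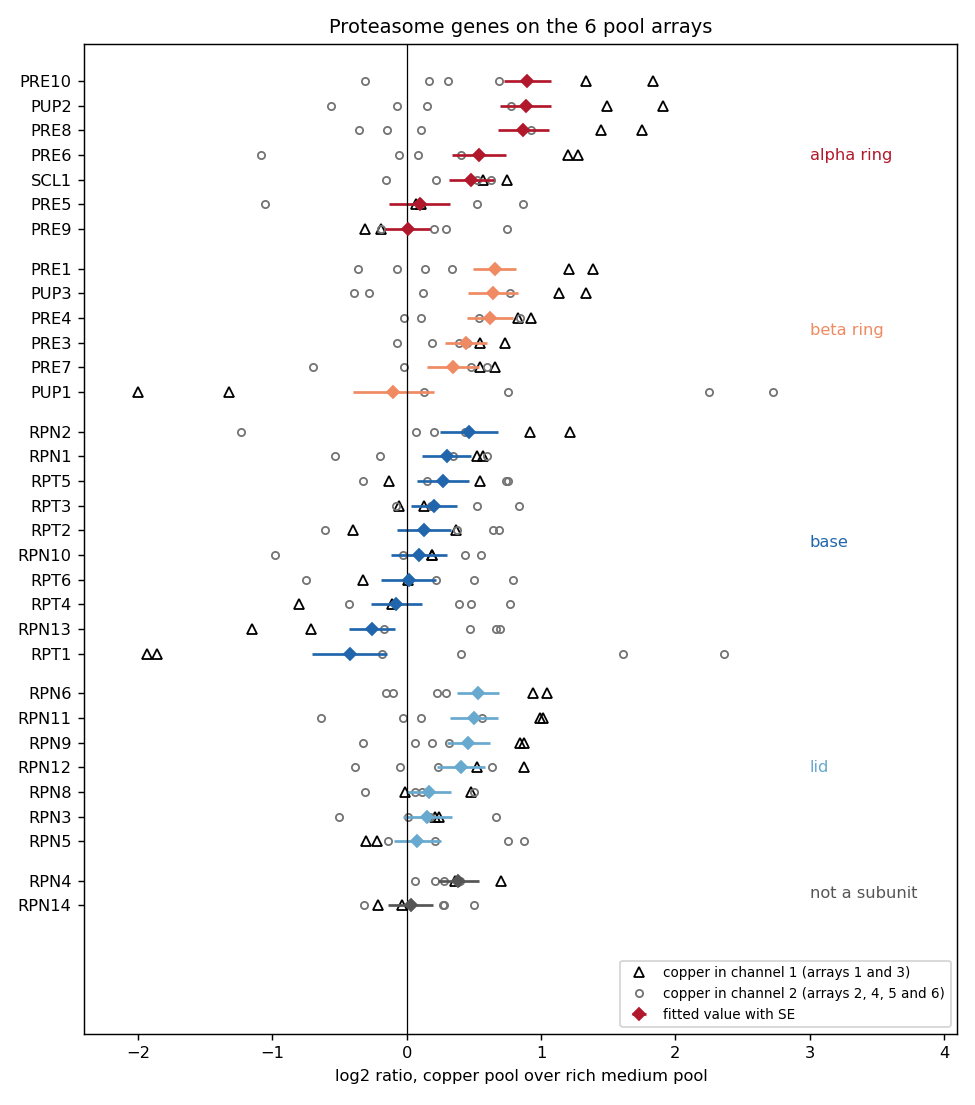
Log2 ratio of the copper pool over the rich medium pool (x axis) for the 32 genes, grouped by role (y axis). Open symbols are the 6 arrays, by the channel that held copper, and filled diamonds are fitted values with SE (n = 6); PRE10, PUP2 and PRE8 have the highest fitted values, 0.87 to 0.90, and PUP1 and RPT1 the widest spread over arrays, with SDs of 1.88 and 1.76.

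RPN4 was itself above 0 on every pool array. Its log2 ratios were 0.70, 0.40, 0.36, 0.28, 0.06 and 0.21, and it was the only 1 of the 32 genes above 0 on all 6, which held for 2.03% of all genes. Its SD of 0.22 was the lowest of the 32. The fitted value, 0.38 ± 0.15, did not pass the test (limma adjusted p = 0.276). Averages were 0.53 with copper in channel 1 and 0.24 with copper in channel 2. RPN4 had 0.22 (limma adjusted p = 0.479) with spot position subtracted, and array 4 was then below 0, at -0.29. RPN14, an assembly chaperone of the base and no stable subunit, had 0.03 ± 0.17.

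Many of the genes passed only before adjustment. An unadjusted p under 0.05 was reached by 15 of the 32 genes, 46.9%, against 14.6% of all genes: 9 of 13 core genes, 5 of 17 regulatory genes and RPN4. The count was 18 of 32, against 14.7% of all genes, with spot position subtracted. Channel order gave a second view of the same arrays. Means above 0 in both orders were found for 20 of the 32 genes, 62.5%, against 16.9% of all genes. They were 10 of 13 core genes and 9 of 17 regulatory genes. The share was 56.2% of the 32 genes, against 16.1% of all genes, with spot position subtracted.

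The core and the regulatory particle were set against each other on each pool array. The mean over the 13 core genes was 0.83, 0.19, 0.64, -0.17, 0.61 and 0.35 on arrays 1 to 6 (0.41 ± 0.36, SD, n = 6). The mean over the 17 regulatory genes was 0.20, 0.18, 0.07, -0.19, 0.47 and 0.41 (0.19 ± 0.24). The 2 particles were close on arrays 2, 4, 5 and 6 and far apart on arrays 1 and 3. Core minus regulatory was 0.63, 0.01, 0.57, 0.02, 0.14 and -0.06, with a mean of 0.22 and an SD of 0.30. The difference was 0.60 on the 2 arrays with copper in channel 1 and 0.03 on the 4 with copper in channel 2. It was 0.37 and -0.0022 on those arrays, and 0.12 ± 0.21 over all 6, once spot position was subtracted. The mean difference was smaller than its SD over arrays, and no test was made of a score over chosen genes.

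**Figure D2:**
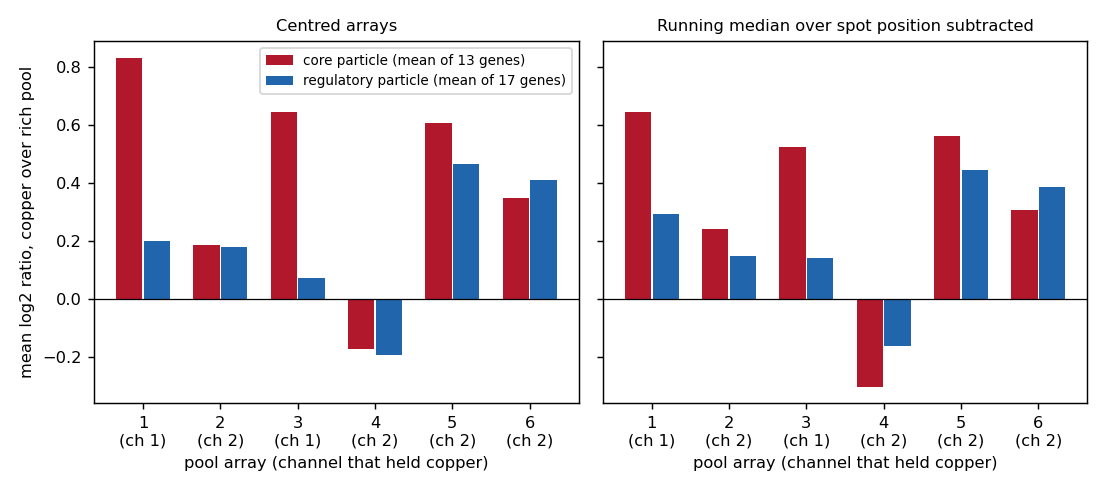
Mean log2 ratio, copper pool over rich medium pool (y axis), of 13 core and 17 regulatory particle genes on each of the 6 pool arrays (x axis, with the channel that held copper), as centred (left) and with a running median over spot position subtracted (right). The bars differ by 0.63 and 0.57 on arrays 1 and 3 as centred and by at most 0.14 on the other 4.

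**Figure D3:**
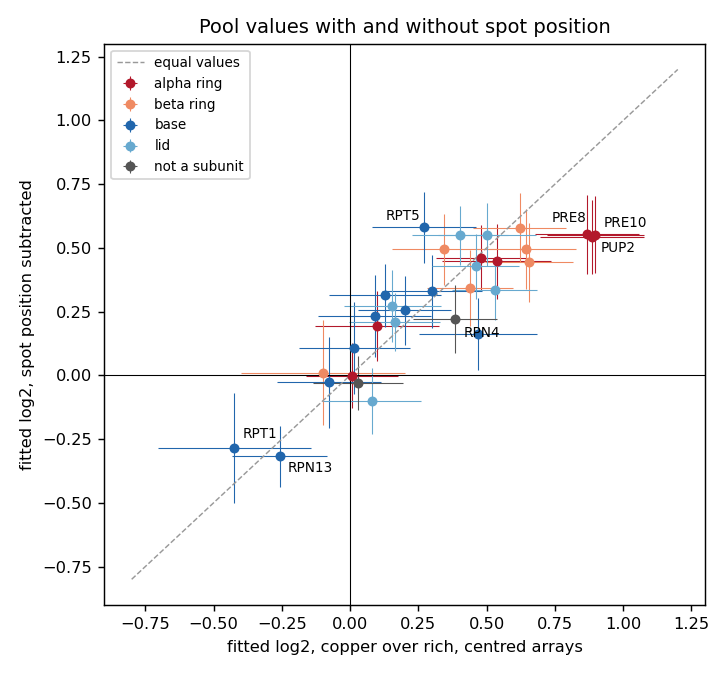
Fitted log2 value of the 32 genes in the pools, copper over rich medium, on centred arrays (x axis) against that with spot position subtracted (y axis), with SE (n = 6 arrays). PRE10, PUP2 and PRE8 lie below the line of equal values, at 0.55, 0.54 and 0.55 on the y axis, and RPT5 lies above it, at 0.58 against 0.27 on the x axis.

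Genes that act around the proteasome were examined in the same fit. All 13 listed assembly factors and activators were measured and 0 passed. Their median was 0.12, and 4 of 13, 30.8%, reached an unadjusted p under 0.05, against 14.6% of all genes. IRC25 was among those 4 as lower in copper, at -0.43. UMP1, the maturation factor of the core, had 0.14, BLM10, an alternative cap, 0.10, and SEM1, a small lid subunit outside the name rule, 0.67 (limma adjusted p = 0.121). SEM1 passed where the arrays were not centred (0.79, limma adjusted p = 0.0438), where the median of all genes also shifted by 0.12, and without pool array 2 (0.79, 0.0474). Of 28 genes of ubiquitin conjugation and delivery, all measured, 3 passed as higher and 0 as lower, against 1.18% and 0.235% of all genes. Their median was 0.25, and 9 of 28, 32.1%, had an unadjusted p under 0.05, against 14.6% of all genes. UFD4 was among these as lower in copper (-0.77, limma adjusted p = 0.0544).

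UBA1, the ubiquitin-activating enzyme, had 1.60, -0.12, 1.37, 0.05, 0.80 and 0.31 on the 6 arrays and a fitted value of 0.87 (limma adjusted p = 0.0251). SHP1, a cofactor of the segregase Cdc48, had 1.57, -0.09, 1.05, 0.34, 0.78 and 0.27 and a fitted value of 0.82 (limma adjusted p = 0.0347). UFD1, a ubiquitin-binding cofactor of Cdc48, had 1.24, 0.23, 1.36, 0.54, 0.10 and -0.17 and a fitted value of 0.74 (limma adjusted p = 0.0420). Arrays 1 and 3 were again the highest for all 3 genes. With spot position subtracted UFD1 passed (limma adjusted p = 0.0187), UBA1 and SHP1 did not (0.0932 and 0.153), and UBC5, a ubiquitin-conjugating enzyme, passed (0.0330). UBI4, the stress-induced polyubiquitin gene, had 0.43. Of 4 transcription factors that act on RPN4 transcription, PDR1 had 0.32, PDR3 -0.11, YAP1 -0.42 and HSF1 -0.06, and 0 of 4 passed, also before adjustment. The signs of PDR3, YAP1 and HSF1 turned under other treatments of the arrays. YAP1 passed on the 4 arrays with copper in channel 2 alone, at 1.18 (limma adjusted p = 0.0208).

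The strain arrays ask whether the 9 strains differ in these transcripts in each medium. No difference among strains passed the test for any of the 32 genes, whatever the medium. The F-test of limma over strains passed for 0 of the 32 genes in copper and 0 in rich medium, where 1.45% and 1.63% of all genes passed. At an unadjusted p under 0.05 there was 1 of the 32 in copper, RPN4, against 5.90% of all genes. In rich medium there was also 1, PUP3, against 11.9%. The range from highest to lowest strain mean had a median of 0.72 over the 32 genes in copper, against 0.73 over all genes, and of 0.91 in rich medium, against 0.91.

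As centred, the core ranged more widely than the regulatory particle, with median ranges of 0.84 and 0.64 in copper and 1.10 and 0.85 in rich medium. With spot position subtracted the particles were close, with median ranges of 0.60 and 0.56 in copper and 0.49 and 0.47 in rich medium. No test was made of that difference. Once spot position was subtracted the median range over the 32 genes was 0.59 in copper, against 0.52 over all genes, and 0.49 in rich medium, against 0.50. The F-test then passed for 0 of the 32 genes in either medium, where 3.58% of all genes passed in copper and 2.77% in rich medium. At an unadjusted p under 0.05 there were 5 of the 32 in copper, against 11.8% of all genes, and 1 in rich medium, against 9.11%. The lowest adjusted p was that of PRE4, a beta subunit, in copper (limma adjusted p = 0.0960).

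RPN4 gave a similar order of the strains in both media, although its F-test over strains did not pass (limma adjusted p = 0.762 in copper and 0.440 in rich medium, and 0.0523 to 1.00 and 0.218 to 1.00 over the alternatives). In copper M5 was highest, with log2 ratios to the pool of 1.18, 0.33 and -0.07 (0.48 ± 0.64, SD, n = 3). YPS163 followed, with -0.05, 0.34 and 0.42 (0.24 ± 0.25). M32 was lowest, with -0.47, -0.43 and -0.25 (-0.39 ± 0.12), and all 3 replicates of M14, S288C and M22 also lay below 0. The replicates of M5 overlapped those of YPS163 and M32 lay below every replicate of both. These strains were picked by the rank of their means, so the lack of overlap is no test of a difference.

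In rich medium M5 was again highest, with 1.15, 0.41 and 0.08 (0.55 ± 0.55). YPS163 had 0.11, 0.77 and 0.20 (0.36 ± 0.35). M32 was again lowest, with -0.14, -0.56 and -0.07 (-0.26 ± 0.27), next to M8 with -0.35, -0.31 and -0.07. All 3 replicates of M5 and of YPS163 lay above 0 and all 3 of M32 and M8 below it. With spot position subtracted M5 had 0.84, -0.22 and 0.26 and YPS163 0.61, -0.06 and 0.10, so that neither lay above 0 in every replicate, and all 3 of M32, M8 and M22 lay below it. M5 remained highest and M32 lowest in both media.

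The full order from high to low was M5, YPS163, M34, M8, M13, M22, S288C, M14 and M32 in copper, and M5, YPS163, M34, S288C, M13, M22, M14, M8 and M32 in rich medium. No neighbours in either order were farther apart than their SD with the arrays as centred. The means of the 9 strains in copper and in rich medium correlated with r = 0.88 (Spearman rho 0.78). Of all genes, 98.9% had a lower r. The highest after RPN4 among the 32 genes was 0.78 (PRE3), and their median was -0.16, against -0.05 over all genes. With spot position subtracted RPN4 had r = 0.86, the median of the 32 genes was 0.05 and that of all genes 0.21. The 2 strains farthest from the median in copper, M5 and YPS163, carried part of the relation: without them r over 7 strains was 0.54. The points share the strains, the spot and, except for the third replicate of M5, the channel order of their replicates, and the pools of the media differ. M5 is thus 1 of the 2 strains left out above and the only one whose channel order differed between media.

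Against the mean of the other 8 strains, RPN4 in M5 was 0.62 ± 0.20 (SE, n = 3 arrays) higher in copper and 0.55 ± 0.21 higher in rich medium. Neither passed the test (limma adjusted p = 0.734 and 0.652). The first replicate of M5 was the highest value of any strain array in each medium, which raised both the mean and the SD. In M32 the difference in copper was -0.35 ± 0.20 (limma adjusted p = 0.985).

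**Figure D4:**
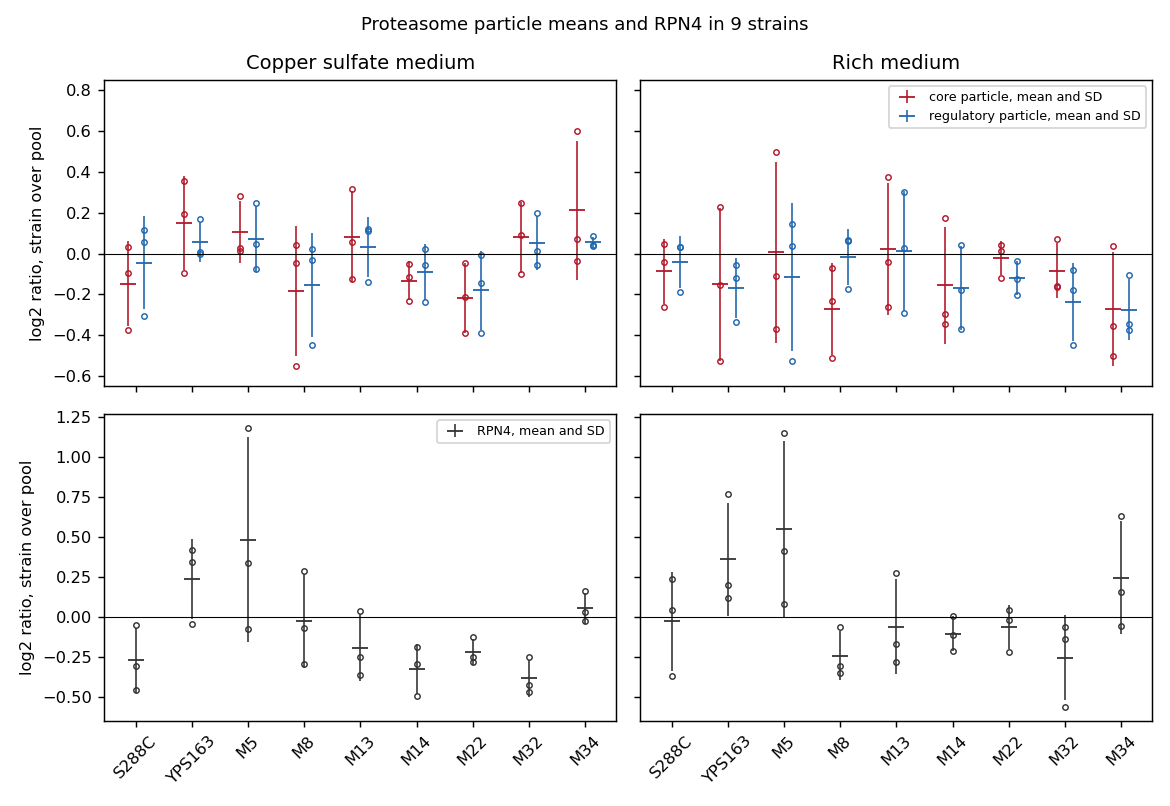
Log2 ratio to the pool of the same medium (y axis) in the 9 strains (x axis), in copper sulfate medium (left) and rich medium (right). The upper panels show the mean over 13 core and 17 regulatory particle genes and the lower panels RPN4; open circles are the 3 arrays and crosses the mean with SD; RPN4 is highest in M5 and lowest in M32 in both media.

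Among subunits, the 3 with the largest range over strains in copper were PRE10, PUP1 and RPT2. PRE10 was highest in YPS163, with 0.85, 0.09 and 0.77, and lowest in M22, with -0.30, -0.68 and -0.86. These replicates did not overlap, but the F-test over 9 strains did not pass (limma adjusted p = 1.00). The gene and both strains were picked by that range, so the lack of overlap is no test of a difference. PUP1 was highest in M32, with 0.30, 0.09 and 0.73, and lowest in YPS163, with -1.67, -0.75 and 0.04. RPT2, an ATPase of the base, was highest in M32, with 0.43, 0.62 and 0.14, and lowest in M8, with -0.88, -1.50 and 0.47, where 1 replicate lay within the values of M32. After spot position was subtracted PRE10 in YPS163 had -0.24, -0.05 and 0.23, so that YPS163 no longer stood high. The ranges of PRE10, PUP1 and RPT2 over strains were then 0.91, 0.66 and 0.94, against 1.18, 1.16 and 1.03 as centred.

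In rich medium the largest ranges belonged to PUP1, PRE5 and RPT1, and M8 was the highest strain for all 3. The spots of these 3 genes lay in the same block, number 12 of the 16 inferred. PUP1 had 1.21, 1.67 and 0.75 in M8, whose mean was above those of the other 8 strains, of which M14 was lowest with -0.05, -1.12 and -0.68. PRE5 had 0.21, 0.99 and 0.75 in M8 and -1.89, -0.85 and -0.30 in M34, the lowest. RPT1 had 1.09, 1.29 and 0.75 in M8 and -0.79, -0.42 and -0.36 in M34, the lowest. The replicates of M8 lay above those of the lowest strain for each of the 3 genes. Genes and strains were picked by that range, so the separation is no test of a difference, and no share over all genes is given. The ranges of PUP1, PRE5 and RPT1 were 1.82, 1.67 and 1.57, and 0.74, 0.40 and 0.72 with spot position subtracted.

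Against the other 8 strains, M8 in rich medium had PUP1 higher by 1.56 ± 0.41, RPT1 higher by 1.22 ± 0.35 and PUP3 lower (difference -0.87 ± 0.28), each at a limma adjusted p of 0.0752. PRE10 had a difference of -1.01 ± 0.38 (0.0820). None passed. M8 in rich medium stood apart over the whole array: 37.8% of all genes had an unadjusted p under 0.05 there, while 0.145% passed after adjustment, and 11 of the 32 genes had an unadjusted p under 0.05. Subtracting spot position gave differences of 0.47 for PUP1, 0.43 for RPT1, -0.11 for PUP3 and -0.06 for PRE10, and then 1 of the 32 genes, and 5.67% of all genes, had an unadjusted p under 0.05. The part of spot position was not tested further.

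Over all contrasts of 1 strain with the other 8, 0 of the 32 genes passed limma's test in any of 9 strains in either medium. Between 0 and 3 of them per strain in copper, and between 0 and 11 in rich medium, had an unadjusted p under 0.05. The share of all genes below that p was 1.59% to 8.47% in copper and 2.17% to 37.8% in rich medium. After adjustment 1.25% of all genes in copper passed in S288C, 0.362% in M13, 0.308% in YPS163, 0.217% each in M32 and M34, 0.109% in M5 and 0.0362% each in M8, M14 and M22. In rich medium the shares were 1.07% in S288C, 0.344% in M13, 0.272% in M34, 0.217% in YPS163, 0.145% in M8, 0.0724% in M5, 0.0543% in M32, 0.0362% in M14 and 0% in M22. The calls in M8 were sensitive to single arrays over the whole table. Without the second replicate of M32 in rich medium 7 of the 32 genes passed in M8 (PRE10, PRE8, PUP1, PUP3, RPN6, RPT1 and RPT4), and 23.5% of all genes. Without replicate 3 of M5 in rich medium 6 of the 32 passed there, and 20.5% of all genes. The share of the 32 genes was thus 21.9% and 18.8%, close to that of all genes. In M34 in rich medium 2 of the 32 passed as lower without the second replicate of every strain. They were PRE5 (-1.33, limma adjusted p = 0.0368) and PRE7 (-1.33, 0.0443), 6.25% of the 32, where 4.16% of all genes passed. PUP3 in M32 in copper passed once spot position was subtracted (0.78, limma adjusted p = 0.0447), where 1.18% of all genes passed, on replicates of 1.89, 0.24 and -0.01. Its values before the subtraction were 0.39, 0.25 and -0.10, so that 1 array carried the difference.

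The response of each strain to copper, copper minus rich medium, was set against the mean response of the other 8. The F-test of strain by medium passed for 0 of the 32 genes and 0% of all genes, with 2 of the 32 (RPN13 and PUP3) and 4.72% of all genes at an unadjusted p under 0.05. In each of the 9 contrasts 0 of the 32 genes and 0% of all genes passed, with between 0 and 5 of the 32 genes, and 0.308% to 19.8% of all genes, at an unadjusted p under 0.05. Over the 32 genes and 9 strains, 17 combinations, 5.90% of them, had all 3 replicates on one side of 0 in copper and all 3 on the other side in rich medium, against 4.29% over all genes. All 3 replicates lay on the same side in both media in 8 combinations, 2.78%, against 4.58%. The counts were 11, 3.82% against 1.81%, and 22, 7.64% against 7.64%, with spot position subtracted. Without the second replicate of every strain, 5 of the 32 genes, 15.6%, passed in YPS163, against 10.5% of all genes: PRE10 (1.84), PRE8 (1.77), PUP2 (1.68), PUP3 (1.52) and RPN6 (1.36). PRE10 had 2.14 on the second array of YPS163 in rich medium, and -1.18 and -0.81 on its other arrays.

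Taken over both media together, the particle means followed each other. Across the 18 means of strain and medium, the core mean and the regulatory mean correlated with r = 0.74, and with 0.88 after spot position was subtracted. No r is given within a medium. As centred, M8 in rich medium had a core mean of -0.27, next to lowest, and a regulatory mean of -0.02, second highest. The mean of the 30 subunits, in copper against rich medium over 9 strains, had r = -0.26, and -0.06 after the subtraction. Pairs of subunits had a mean r of 0.15 over 435 pairs, core pairs 0.20 and regulatory pairs 0.12, against 0.0041 over pairs of all genes. After the subtraction of spot position they were 0.30, 0.38 and 0.23, against 0.00096. The 18 points share 2 pools and the layout of spots, and RPT4 and RPN8, whose spots are adjacent, had r = 0.54 before and 0.17 after the subtraction.

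In copper the core mean was highest in M34 (0.60, -0.04 and 0.07) and lowest in M22 (-0.39, -0.21 and -0.05). The regulatory mean was highest in M5 (0.25, 0.04 and -0.08) and lowest in M22 (-0.39, -0.15 and -0.01). M22 was thus low in both particles, with all 3 replicates below 0. M8 was lowest in both once spot position was subtracted, at -0.31 ± 0.29 for the core and -0.20 ± 0.23 for the regulatory particle (SD, n = 3), again with all 3 below 0. M22 then had -0.16 and -0.19, and M34 and M5 were still the highest strains of the 2 particles. In rich medium both means were highest in M13 and lowest in M34, where the core had -0.50, -0.36 and 0.04 and the regulatory particle -0.38, -0.35 and -0.10. After the subtraction the core mean was highest in M5 (-0.0037) and lowest in M14 (-0.20), and the regulatory mean highest in M13 (0.03) and lowest in M32 (-0.19). The strain means of the 30 subunits ran from -0.27 to 0.12 over both media, and their SD over 3 replicates had a median of 0.16.

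Core minus regulatory ranged from -0.10 in S288C to 0.16 in M34 in copper, and from -0.26 in M8 to 0.15 in M32 in rich medium. All 3 replicates were below 0 in S288C and M22 in copper and in M8 in rich medium, and above 0 in M22 in rich medium. After the subtraction they were below 0 in S288C, M8 and M14 in copper and in M8 in rich medium, and above 0 in M32 in rich medium, while M22 had means of 0.02 in copper and 0.01 in rich medium. The span over the 18 means was 0.41, and 0.25 with spot position subtracted. RPN4 and the mean of the 30 subunits correlated with r = 0.11 across the 18 means, higher than 66.7% of all genes, and with 0.35 after the subtraction, higher than 89.2%. RPN14 was above 0 in all 3 replicates of M8, M13, M5 and M14 in copper and of M14 and M22 in rich medium, and below 0 in all 3 of M8 in rich medium (-0.94, -0.46 and -0.36). M8 in rich medium had -0.04, 0.03 and -0.02 with spot position subtracted. RPN14 was then above 0 in all 3 replicates of 7 strains in copper, all but YPS163 and M5, and of YPS163, M5 and M22 in rich medium, and below 0 in all 3 of S288C in rich medium.

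**Figure D5:**
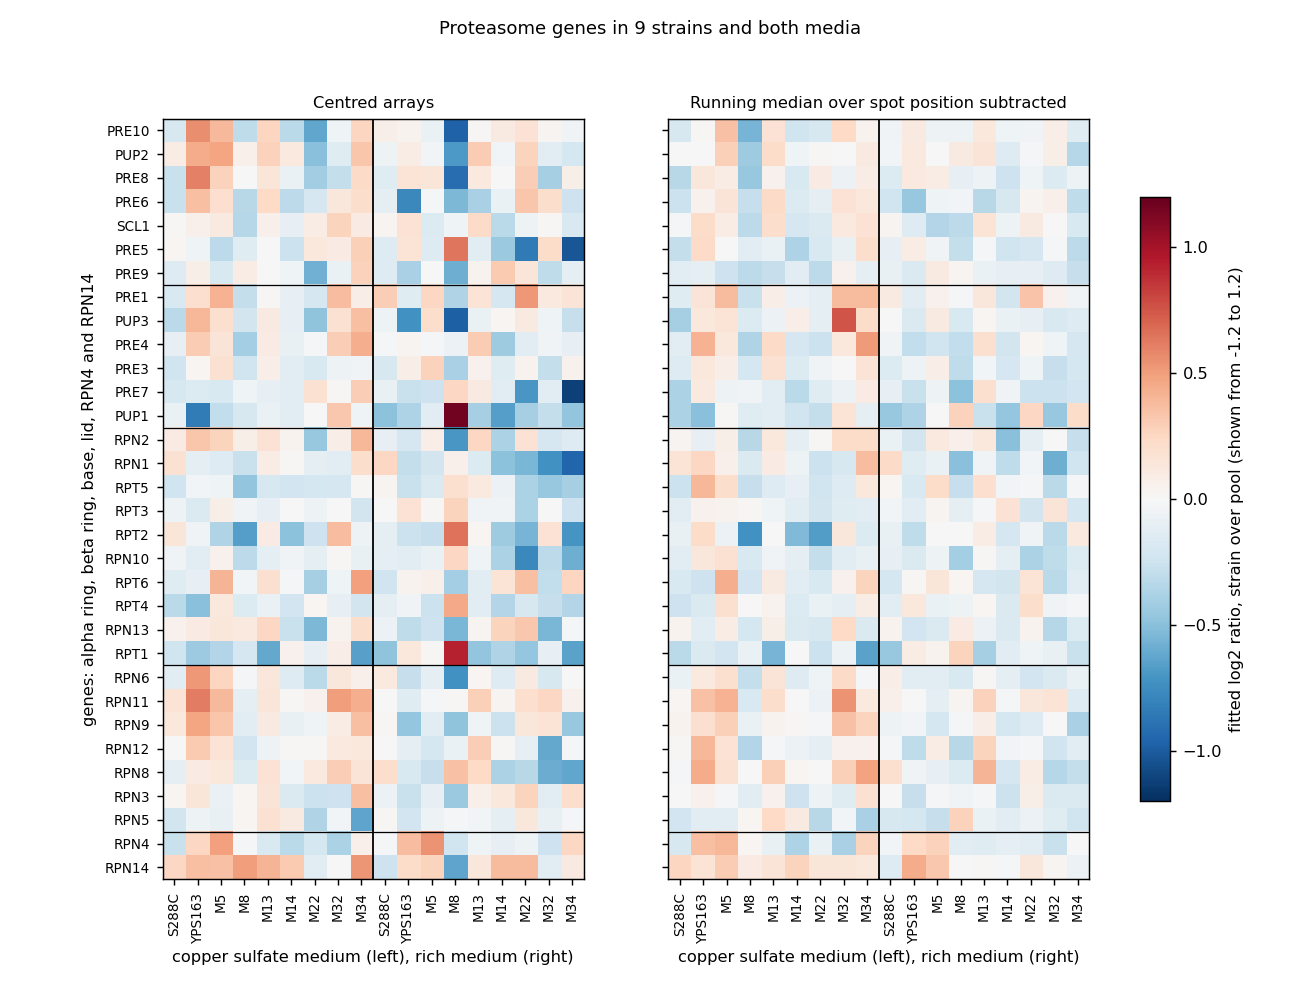
Fitted log2 ratio to the pool of the same medium (colour, shown from -1.2 to 1.2) of the 32 genes (rows, by role) in the 9 strains in copper sulfate medium and rich medium (columns), on centred arrays (left) and with spot position subtracted (right). M8 in rich medium has the highest column values for PUP1 and RPT1 and low values for PRE10 and PUP3 on the left, which are closer to 0 on the right.

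The genes whose 18 means were most like those of RPN4 were FLO5 (r = 0.82), a flocculin, MPD1 (0.81), a protein disulfide isomerase of the endoplasmic reticulum, COS12 (0.81), NCW2 (0.79) and PRM10 (0.79). After the same subtraction they were SRL3, GSC2, TAH11, SHE4 and MPD1, so that MPD1 was in both lists. The subunit gene most like RPN4 was PRE3 (0.73, rank 13 of all genes), followed by PRE8 (0.62, rank 90). PRE5 (0.66, rank 43) and RPT5 (0.63, rank 57) came first once spot position was subtracted, which had -0.29 and 0.05 as centred, and PRE3 had 0.55 (rank 133). Of the 45 listed assembly, ubiquitin and regulator genes, 0 passed limma's F-test over strains in copper and 0 in rich medium, with 0 and 3 at an unadjusted p under 0.05, against 5.90% and 11.9% of all genes.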

How the data were processed

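Per the labels, RNA was reverse transcribed with amino-allyl dUTP, labelled with Cy3 or Cy5 and scanned on a GenePix 4000A and read in version 4.0 of its software, and bad spots were marked. The deposited values were log2 ratios: 2 to their power had 3 decimals in 100% of values, within 0.00001. Normalization is not given in the sources used here. Of 6144 rows, 5541 had 1 gene, 0 several and 603 none. By identifier 5536 matched the R64 gene table, and rows of a gene were averaged to 5524 genes.

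Each array was centred on its median (deposited medians -0.77 to 1.16) and turned by the labels' channel order. Over the 200 most variable rows, the mean unlogged ratio to the pool departed from 1 by a median of 0.17 (absolute log2) in copper with channel 1 on top and by 0.43 with channel 2 on top. In rich medium these values were 0.12 and 0.41.

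Fits used limma 3.58.1 in R 4.3.3: a mean and a channel effect on the 6 pool arrays, and 18 group means and a channel effect on the 54 strain arrays, with moderated two-sided tests and Benjamini-Hochberg adjustment over 5524 genes at 0.05. They were also run on simulated data with independent noise in each gene and array. Those data had no shared spot position, so they cannot show how the calls behave on these arrays. Spot position was a running median of 15 by 15 spots, with 16 blocks of 16 rows by 24 columns inferred from the row order. Python 3.11.15, NumPy 2.4.6, pandas 2.3.3 and matplotlib 3.10.9 were used for the rest.

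The genes, lists and alternatives were chosen with earlier results of these data known. Every gene of the name rule is accounted for. Values by array are given for RPN4, the 2 highest and 2 lowest in the pools, every gene past 0.05, and the 3 with the largest range over strains in each medium. From the lists of assembly factors and activators, ubiquitin conjugation and delivery, and regulators of RPN4, genes past 0.05 and 8 preset genes were named. The 5 genes most correlated with RPN4 were also named. Any further gene, such as those called under a single alternative, was picked with its values in view.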

Additional observations from a re-analysis of the deposited data

Results flagged for a closer look

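The mean of the 6 beta ring genes on pool array 4 was -0.189, copper over rich medium on the log2 scale, where the other 5 arrays lay between 0.42 and 0.57. The gap to the nearest array was 0.805 of the whole range, above the 95% critical value of Dixon's test for 6 values. It was 1 of 50 sets of values tested, and chance flags about 1 in 20. The means of the alpha ring, base and lid on array 4 were -0.16, -0.24 and -0.13.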

How the results depend on the processing

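In the pools, 3 of the 32 genes passed, against 1.41% of all genes. This count was 0 with arrays scaled to equal median absolute deviation, with no channel effect and with spot position subtracted. Over all genes 0.561%, 0.380% and 1.57% passed in these settings, in that order. The count among the 32 was 1 on the 4 arrays with copper in channel 2, an alternative chosen after seeing the data, where 2.73% of all genes passed. It ran from 0 to 3 when each array was left out (0 without array 1, 3 or 5, 1 without array 6). The shares of all genes were 0.561%, 0.272% and 0.742% without arrays 1, 3 and 5, and 1.27% without array 6. The count stayed at 3, the same genes, without centring and with a robust empirical Bayes step, where 1.81% and 1.41% of all genes passed. With arrays centred within spot blocks it was 2, where 1.74% of all genes passed. PRE10 was kept, PUP2 and PRE8 were lost and RPN12 was gained. The F-tests over strains and of strain by medium gave 0 of the 32 genes under every alternative run. Strain contrasts in copper gave 1 with spot position subtracted (in M32, where 1.18% of all genes passed) and 0 otherwise. Those in rich medium gave 0 to 7 with replicates left out. The highest count was in M8 without the second rich medium array of M32, where 23.5% of all genes passed. Response contrasts gave 0 to 5, highest in YPS163 without replicate 2, where 10.5% of all genes passed. Of the 36 pairs of strain arrays that shared a replicate number and medium, 20 to 34 correlated above 0.1, with median r of 0.15 to 0.32. No pairs of different numbers are given for comparison, so whether replicate numbers pair the strain arrays was not tested. A further fit took the replicate number as a replicate block in place of the channel effect. Strain contrasts in rich medium then gave 1 call (PUP1 in M8, 1.57, limma adjusted p = 0.0420), where 0.380% of all genes passed. The other counts over strains stayed at 0.

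The span of core minus regulatory over strains was 0.41, and 0.32 at equal median absolute deviation, 0.25 with spot position subtracted, 0.25 centred within spot blocks and 0.48 to 0.57 with a replicate number left out. Core minus regulatory in the pools ran from 0.12 to 0.31. The alternative without a channel effect was not run for these, which have none.

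Signs turned for genes that had not passed. With no channel effect RPT1 was 0.066, YAP1 0.11 and HSF1 0.059. On the 4 arrays with copper in channel 2 RPT1 was 1.05, RPN13 0.42, SEM1 -0.16, YAP1 1.18 and HSF1 0.30. Without centring PDR3 was 0.014 and HSF1 0.062, with spot position subtracted 0.021 and 0.14, and centred within spot blocks 0.042 and 0.14. With each array left out UMP1 ran from -0.12 to 0.40 and HSF1 from -0.21 to 0.085. The causes were not tested.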
